A study of Homo sapiens with 6 samples.

Results

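Voltage-gated calcium channels were examined here through 10 of their subunit genes, to see where MAR-seq placed DNA held by the nuclear matrix in and around them, and how the places differed when HNRNPU was knocked down. The 10 genes were CACNA2D1, CACNA2D2, CACNA2D3, CACNA1A, CACNA1B, CACNA1C, CACNA1D, CACNA1E, CACNB2 and CACNB4, out of 20037 protein-coding genes in the RefSeq gene table of GRCh38. They were chosen by name as one gene family, and the family was chosen because CACNA2D3 held 14 regions with the control hairpin and 5 with the HNRNPU hairpin, the largest difference downwards of any protein-coding gene. Next came MYT1L, with 17 and 9. The count of CACNA2D3 in these lists is therefore a description and supports nothing by itself.

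All cells were of H1, an established line of human pluripotent stem cells grown on Matrigel. The 3 groups had 2 samples each: untreated cells (hPSC), cells with an shRNA against HNRNPU (shHNRNPU) and cells with an shRNA against LUC (shLUC), used here as the hairpin control. The labels do not say how many hairpins or clones were used, and no RNA or protein level of HNRNPU was available by which the knockdown could be checked. Each group came as 1 list of regions, each 400 bp wide, with 39368 regions for shLUC, 36277 for shHNRNPU and 40106 for hPSC. No value below has a replicate error, no difference between lists was tested, and intervals are 95% exact intervals that cover counting error only. The hPSC samples differ from the hairpin samples by the hairpin itself, and this cannot be told apart from any difference in batch.

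A voltage-gated calcium channel opens when the membrane is depolarised and lets calcium into the cell. Its pore is the alpha1 subunit, and the high-voltage-activated channels carry a beta subunit on the inner face and an alpha2delta subunit on the outer face, which help bring the pore to the membrane and tune its gating. These channels drive transmitter release, heart and smooth muscle contraction and hormone secretion. HNRNPU, also called scaffold attachment factor A, is a nuclear protein that binds RNA and the DNA of matrix attachment regions, which are classically described as rich in A and T.

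Of the 10 genes 7 held fewer regions in shHNRNPU than in shLUC, CACNA2D3 among them. Among genes with at least 4 regions in the larger hairpin list, this was 7 of 9, or 6 of 8 without CACNA2D3. Of all 1962 protein-coding genes with that many, 51.6% held fewer. The largest single difference, 14 against 5, was that of CACNA2D3, for which the family was chosen. Across the 10 genes there were 74 regions for shLUC, 56 for shHNRNPU and 65 for hPSC. Of the 74 shLUC regions, 51 were also in the shHNRNPU list (68.9%, interval 57.1 to 79.2%), and all 51 had the same coordinates in both lists. These are called kept below. The other 23 shLUC regions had no shHNRNPU region at the place and are called lost, while 5 shHNRNPU regions had no shLUC region and are called gained. Over all protein-coding genes 16158 of 22662 shLUC regions were kept, or 71.3%.

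**Figure D1:**
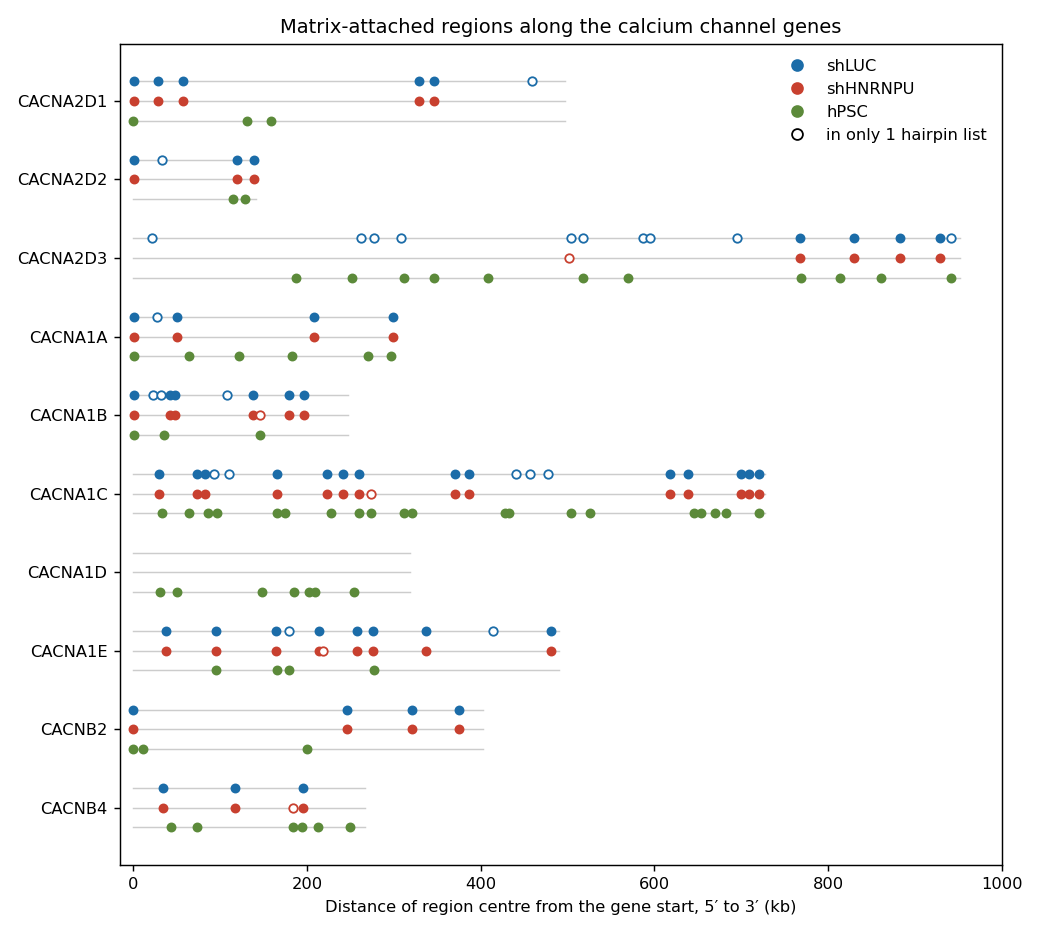
Each row is 1 calcium channel gene drawn from its 5′ end, and each point is the centre of 1 region, at its distance from the gene start in kb, in the shLUC, shHNRNPU and hPSC lists. Hollow points are regions found in only 1 of the 2 hairpin lists; 9 of the 10 lost regions of CACNA2D3 follow one another from the gene start, and CACNA1D has points in hPSC alone.

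The starts of the genes are shown first. Promoter windows were those of RefSeq on GRCh38.p14, each with 250 bases before and 50 bases after a transcript start, and all 10 genes had at least 1. In shLUC, 5 of the 10 genes had a region on a window, where 19.4% of all protein-coding genes with a window did. Those 5 were CACNA2D2, CACNA2D3, CACNA1C, CACNA1D and CACNB2. In shHNRNPU there were 3 of 10, against 20.6% of all genes, and the missing ones were CACNA2D3 and CACNA1D, both on chromosome 3. CACNA2D2 is on chromosome 3 too and had its region in both hairpin lists. In hPSC there were 2 of 10, CACNA2D1 and CACNB2, against 36.4%. CACNA2D2, CACNB2 and CACNB4 have several windows, which gives them more chances than a gene with 1.

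The windows below are those of both genes whose promoter region was in shLUC alone, CACNA2D3 and CACNA1D, with 1 window under a region of both hairpin lists and 1 under regions of all 3 lists beside them. Each is printed from 5′ to 3′ in the direction of its gene, and capitals mark the bases under a region of any list. For CACNA2D3 (chr3:54122302-54122601, plus strand) the capitals are 215 bases under a region of shLUC alone. For CACNA1D (chr3:53494361-53494660, plus strand) they are 160 bases, again under a region of shLUC alone. For CACNA1C (chr12:2052737-2053036, plus strand) they are 180 bases under 1 region found in both hairpin lists, and this window lies well inside the annotated gene, since the region is centred 82.3 kb from the gene start. For CACNB2 (chr10:18140174-18140473, plus strand) all 300 bases lay under an hPSC region, and the last 23 also under a region of both hairpin lists.
CACNA2D3: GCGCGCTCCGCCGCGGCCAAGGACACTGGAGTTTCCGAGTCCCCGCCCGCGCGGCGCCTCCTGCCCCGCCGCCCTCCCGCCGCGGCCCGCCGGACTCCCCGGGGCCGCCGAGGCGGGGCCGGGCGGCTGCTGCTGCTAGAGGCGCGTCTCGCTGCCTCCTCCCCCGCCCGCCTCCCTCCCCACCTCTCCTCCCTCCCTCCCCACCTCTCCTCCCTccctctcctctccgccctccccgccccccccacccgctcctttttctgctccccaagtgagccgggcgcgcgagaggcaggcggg
CACNA1D: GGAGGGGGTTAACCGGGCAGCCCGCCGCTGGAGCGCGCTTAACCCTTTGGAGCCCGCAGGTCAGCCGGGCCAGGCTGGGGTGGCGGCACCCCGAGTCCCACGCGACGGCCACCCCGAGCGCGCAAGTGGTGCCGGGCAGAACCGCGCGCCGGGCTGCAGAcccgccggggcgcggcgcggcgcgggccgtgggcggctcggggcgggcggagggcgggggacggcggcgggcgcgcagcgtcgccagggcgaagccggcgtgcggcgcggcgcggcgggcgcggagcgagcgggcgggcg
CACNA1C: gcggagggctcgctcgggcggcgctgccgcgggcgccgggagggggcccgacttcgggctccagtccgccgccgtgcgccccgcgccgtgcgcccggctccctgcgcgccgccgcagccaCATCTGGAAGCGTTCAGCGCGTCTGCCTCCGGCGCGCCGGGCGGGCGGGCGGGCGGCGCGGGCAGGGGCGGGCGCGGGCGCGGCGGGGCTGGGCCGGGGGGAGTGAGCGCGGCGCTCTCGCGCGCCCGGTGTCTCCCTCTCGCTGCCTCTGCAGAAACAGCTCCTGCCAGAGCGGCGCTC
CACNB2: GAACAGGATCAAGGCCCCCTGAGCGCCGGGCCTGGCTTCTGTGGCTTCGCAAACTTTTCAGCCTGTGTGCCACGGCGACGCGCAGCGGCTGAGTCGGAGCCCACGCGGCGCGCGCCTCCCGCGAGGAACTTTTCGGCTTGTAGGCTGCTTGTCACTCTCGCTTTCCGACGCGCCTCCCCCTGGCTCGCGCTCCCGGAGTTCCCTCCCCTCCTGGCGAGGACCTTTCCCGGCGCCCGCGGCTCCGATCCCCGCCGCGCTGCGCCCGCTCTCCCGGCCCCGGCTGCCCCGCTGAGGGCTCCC

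These 4 windows were rich in G and C, with 79% in CACNA2D3, 83% in CACNA1D, 82.3% in CACNA1C and 72.3% in CACNB2, where the median of 22199 windows of protein-coding genes was 62.3%. Of the 3 other covered windows, those of CACNA2D2 (56 bases in both hairpin lists) and CACNA2D1 (300 bases in hPSC) had 77.3% and 72.3%, but a further window of CACNB2 (chr10:18340459-18340758, 251 bases in hPSC) had 46.7%. The enzymes used to cut the DNA were looked up in the same letters. The MspI site CCGG occurred 4 times in CACNA2D3, 6 times in CACNA1D, 6 times in CACNA1C and 5 times in CACNB2, and 74.0% of all windows held it. The HaeIII site GGCC occurred 4, 3, 2 and 3 times in the same order, and 84.3% of all windows held it. The RsaI site GTAC was in none of the 4 windows, and 28% of all windows held it. The AluI site AGCT occurred 1 time, in CACNA1C, and 73.6% of all windows held it. The BamHI site GGATCC and the PvuII site CAGCTG were in none of the 4, and 7.22% and 18.0% of all windows held them. These absences hold for the printed windows only. The covered CACNA2D2 window held 1 PvuII site, and the further CACNB2 window held no MspI or HaeIII site, 1 RsaI, 4 AluI and 1 PvuII site. The sites read the same on both strands, and MspI and HaeIII sites can overlap by some bases. A site is only a match of letters, and whether cutting or base composition bears on the presence of a region here was not tested.

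Within 1 kb of a promoter window the hairpin lists held a region at most of these genes. This was so for 9 of 10 genes in shLUC, where 28.6% of all genes had one, and for 7 of 10 in shHNRNPU, where 29.7% had one. The shares over all genes cover genes of any length. As with CACNA1C, the window of CACNA1E lies well inside the annotated gene. Its near hairpin region, centred 164.6 kb from the gene start, is also counted in the gene body. CACNB4 had no region that near in either hairpin list, with its nearest region 8072 bases from a window. In shHNRNPU the nearest region lay 62049 bases from the window of CACNA2D3 and 12885 bases from that of CACNA1D. The hPSC list had a region within 1 kb at 6 of 10 genes, against 46.3% of all, among them CACNA2D3, where the gap was 740 bases. At CACNA2D1 and CACNA1A the hairpin region lay 103 and 104 bases from the window, on the gene side, and at CACNA1B it lay 489 bases away, also on the gene side.

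**Figure D2:**
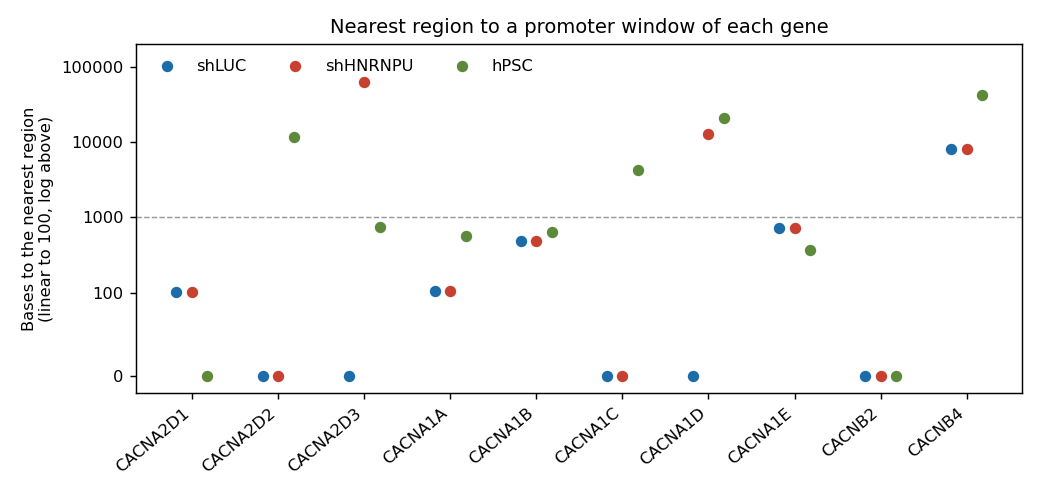
For each gene the points give the distance in bases from a RefSeq promoter window to the nearest region of each list, on an axis that is linear near 0 and logarithmic above, with a dashed line at 1 kb; 0 means that they overlap. CACNA2D3 and CACNA1D sit at 0 in shLUC and at 62049 and 12885 in shHNRNPU, while the hairpin lists coincide at the other 8 genes.

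CACNA2D3 codes for an alpha2delta subunit and spans 952 kb of chromosome 3 (54122552 to 55074557, plus strand). It held 14 regions in shLUC (exact Poisson interval 7.65 to 23.5), 5 in shHNRNPU (1.62 to 11.7) and 11 in hPSC (5.49 to 19.7). The shHNRNPU count was thus the lowest of the 3. Its interval, which does not allow for regions in both hairpin lists, overlapped those of the other lists. As densities the counts were 14.7 regions per Mb in shLUC, 5.25 in shHNRNPU and 11.6 in hPSC. Of the 14 shLUC regions 4 were kept and 10 lost (kept 28.6%, interval 8.39 to 58.1%). Regions that lie along 1 gene are not independent draws, so the interval is likely too narrow.

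The lost regions lay together in most of the gene. Going from the 5′ end, the first 9 shLUC regions in the gene were all lost, from the one at 54143558 to 54143957, 21.2 kb from the start, to the one at 54818107 to 54818506, 695.8 kb from the start. They spanned 674.9 kb, or 70.9% of the gene. The 4 kept regions then followed without a break between 54890187 and 55051947, at 767.8 to 929.2 kb, and the last shLUC region, 941.8 kb from the start, was lost. In 3 equal parts of the gene from the 5′ end, 0 of 4, 0 of 4 and 4 of 6 shLUC regions were kept.

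**Figure D3:**
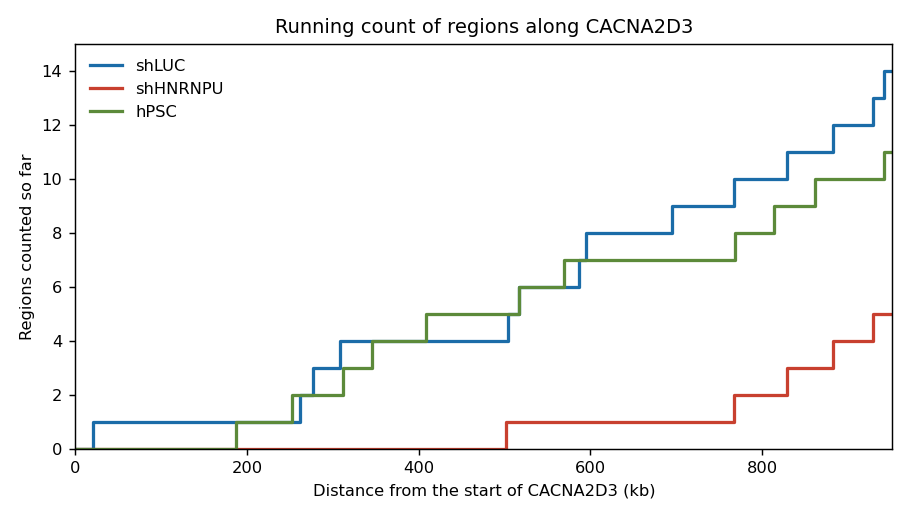
The lines count the regions met when walking along CACNA2D3 from its 5′ end (distance in kb on the x axis, number of regions so far on the y axis), 1 line for each list. The shLUC and hPSC lines both have steps in each of 3 equal parts of the gene and end at 14 and 11, whereas the shHNRNPU line has 1 step, at 502.0 kb, before 767.8 kb and ends at 5.

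The run of lost regions began before the gene body. The shLUC region on the promoter window (54122117 to 54122516) ended 35 bases short of the annotated gene start and so was not among the 14, but it was lost as well, which made 10 lost regions in a row. The region before it, at 54059854 to 54060253 and 62.3 kb ahead of the gene, was kept. Along the whole genome the 11500 lost shLUC regions formed 8139 runs with a median length of 1, and this was the longest of them and the only one of 10 or more. Among 197 protein-coding genes with at least 10 shLUC regions, CACNA2D3 was 1 gene (0.508%) with a run of at least 9 inside its body, where the median longest run was 2. It was also 1 of 2 genes (1.02%) with a kept share this low. The other was TBCD, with 3 of 11 kept, and the median kept share of the 197 genes was 70.0%. These ranks restate the contrast by which CACNA2D3 was picked.

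Outside the gene the hairpin lists were more alike. In the 500 kb before CACNA2D3 there were 8 shLUC regions, of which 6 were kept, and in the 500 kb after it 12, of which 10 were kept. The 2 lost regions before the gene included the one on its promoter. The hPSC list held 14 regions before the gene and 4 after it.

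Inside the stretch of lost regions shHNRNPU held 1 region, at 54624322 to 54624721, 502.0 kb from the start. It was a gained region, with 1407 bases between it and a lost shLUC region at 54626129 to 54626528, and both overlapped the lncRNA gene LOC107986088. Next, the lost region at 54639739 to 54640138 covered 119 bases at the higher-coordinate end of the annotated span of ESRG (54632124 to 54639857). ESRG is a long non-coding RNA gene inside CACNA2D3 that is known for its expression in human pluripotent stem cells. The strand of ESRG is not given here. The hPSC list held the lost region on ESRG at the same coordinates. The ESRG region and the lost region at 55064189 to 55064588 were the 2 of 10 lost regions with an hPSC region on them. Of the 4 kept regions 0 had one. Over all protein-coding genes 17.3% of lost and 16.5% of kept regions had one, and these counts are too few to set against those shares. Of the 4 kept regions of CACNA2D3, the first lay in CACNA2D3-AS1 and the next in LRTM1, both genes inside CACNA2D3.

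The untreated cells held 7 regions in the stretch of lost shLUC regions, where shHNRNPU held 1. In the hPSC list this part of the gene was thus not empty, though its regions lay mostly at other positions than in shLUC. In the same 3 parts of the gene there were 3, 4 and 4 regions in hPSC, 4, 4 and 6 in shLUC, and 0, 1 and 4 in shHNRNPU. By counts in the 3 lists, the genes nearest to CACNA2D3 were CDH13 (9 in shLUC, 5 in shHNRNPU and 11 in hPSC), IQSEC1 (13, 9 and 11) and TMEM132D (12, 8 and 11), each with a summed difference of 5 regions over the 3 lists. In these the kept regions were 4 of 9, 6 of 13 and 8 of 12.

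CACNA2D1 and CACNA2D2, the other alpha2delta genes of the 10, each lost 1 region. CACNA2D1 and CACNA2D2 code for the subunits to which gabapentin and pregabalin bind. CACNA2D1 (chromosome 7, 81946444 to 82443956, minus strand) held 6 regions for shLUC, 5 for shHNRNPU and 3 for hPSC. Its first 5 shLUC regions from the 5′ end were kept, and the lost one lay farthest from the start, at 458.7 kb. CACNA2D2 (chromosome 3, 50362613 to 50504244, minus strand) held 4 in shLUC, 3 in shHNRNPU and 2 in hPSC, and the lost region lay 33.1 kb from the start.

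**Figure D4:**
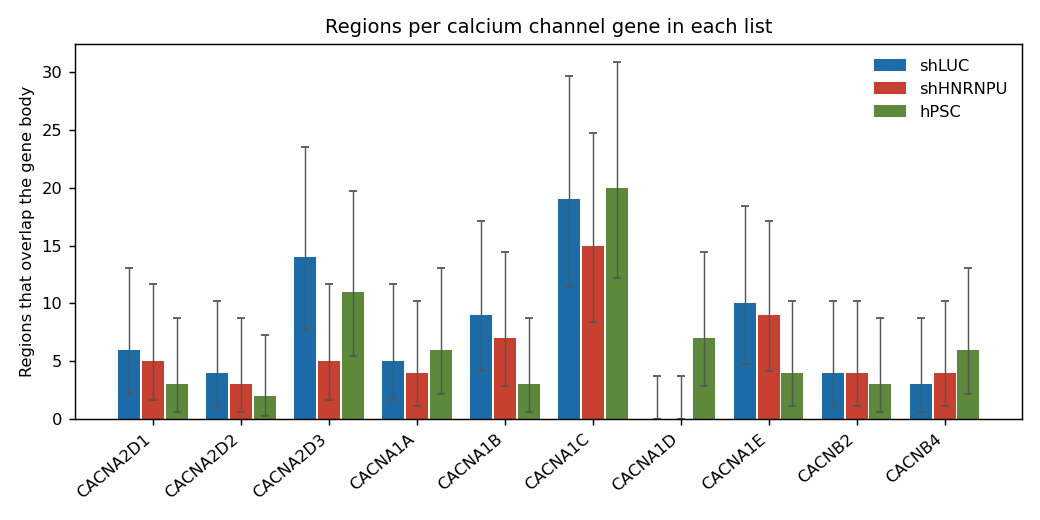
Bars give the number of regions that overlap each gene body in the shLUC, shHNRNPU and hPSC lists, with exact 95% Poisson intervals for counting error. CACNA2D3 goes from 14 in shLUC to 5 in shHNRNPU, the other genes differ by at most 4 between these lists, and CACNA1D has 0 in both hairpin lists and 7 in hPSC.

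Next the alpha1 genes, which code for the pores, were compared. CACNA1C (chromosome 12, 1970780 to 2697950, plus strand) codes for the main L-type pore of heart and smooth muscle and held the most regions of the 10 genes, with 19 in shLUC, 15 in shHNRNPU and 20 in hPSC. Of its 19 shLUC regions 14 were kept (73.7%, interval 48.8 to 90.9%). The 5 lost ones lay in 2 groups, 2 at 92.5 and 110.8 kb and 3 next to one another at 441.3, 457.0 and 477.1 kb, so it had a longest run of 3. All 5 shLUC regions in the last of 3 equal parts of the gene were kept. CACNA1E (chromosome 1, 181317699 to 181808084, plus strand), the R-type pore, held 10 in shLUC, 9 in shHNRNPU and 4 in hPSC, with 8 of 10 kept and no 2 lost regions side by side. CACNA1B (chromosome 9, 137877782 to 138124619, plus strand), the N-type pore of nerve terminals, held 9, 7 and 3, with 6 of 9 kept. Its 3 lost regions lay at 22.4, 32.1 and 108.0 kb from the start. CACNA1A (chromosome 19, 13206442 to 13506479, minus strand), the P/Q-type pore, held 5, 4 and 6 with 4 of 5 kept. Over the 5 alpha1 genes 32 of 43 shLUC regions were kept, or 74.4%.

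CACNA1D differed from the rest in another comparison. It codes for a second L-type pore, found in endocrine cells, hair cells and the pacemaker of the heart, and lies at 53494611 to 53813733 on the plus strand of chromosome 3. It held 0 regions for shLUC, 0 for shHNRNPU and 7 for hPSC, the last spread from 31.0 to 253.9 kb from its start. In shLUC the nearest regions were the one on its promoter, ending 90 bases before the gene, and one 9.79 kb beyond its end, which left a gap of 329.0 kb. In shHNRNPU the gap was 342.0 kb, and all 7 hPSC regions lay inside it. Among 447 protein-coding genes with at least 7 hPSC regions, 2 (0.447%) held 0 in both hairpin lists. These were CACNA1D and DMXL2, and this comparison was chosen after the values were seen. How far the hairpin, the batch or the calling of regions has part in this cannot be told apart.

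The beta genes held few regions and lost none. CACNB2 and CACNB4 code for cytoplasmic subunits that bind the pore. CACNB2 (chromosome 10, 18140424 to 18543557, plus strand) held 4 regions in shLUC, the same 4 in shHNRNPU and 3 in hPSC. CACNB4 (chromosome 2, 151832771 to 152099167, minus strand) held 3 in shLUC, all kept, 4 in shHNRNPU and 6 in hPSC, and was the only gene of the 10 with more regions in shHNRNPU than in shLUC. By class of subunit within the 10 genes, 7 of 7 shLUC regions were kept in the beta genes and 32 of 43 in the alpha1 genes. In the alpha2delta genes 12 of 24 were kept, or 8 of 10 without CACNA2D3, where the share over all protein-coding genes was 71.3%. Subunit genes outside the 10 kept 10 of 17 alpha1 regions (58.8%) and 2 of 5 alpha2delta regions (40%), and their beta genes held 0 shLUC regions. These counts are a description, and no difference between classes was tested.

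**Figure D5:**
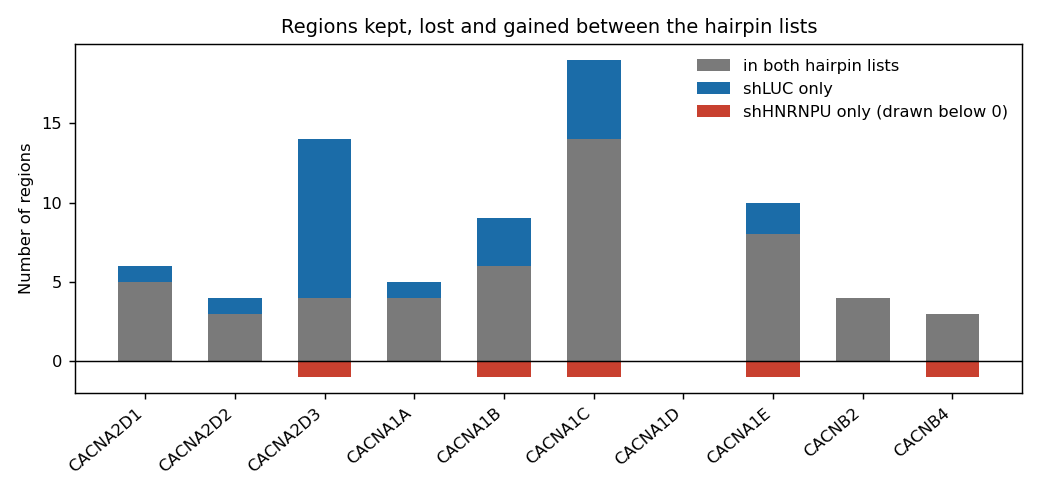
Stacked bars give, for each gene, the shLUC regions also found in shHNRNPU (grey) and those found in shLUC only (blue), with regions found in shHNRNPU only drawn below 0 (red). Lost regions outnumber kept ones in CACNA2D3, 10 to 4, and in no other of the genes.

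The family, with and without CACNA2D3, was next set against all protein-coding genes. A gene was counted where it held at least 4 regions in the larger of the 2 hairpin lists, which 1962 genes and 9 of the 10 did, all but CACNA1D. Fewer regions in shHNRNPU were found in 7 of these 9, or in 6 of 8 without CACNA2D3, where 51.6% of the 1962 genes had fewer. More were found in 1 of 9, where 27.6% had more. A number lower by 2-fold or more was found in CACNA2D3 alone (1 of 9), by which the family was chosen, where 10.1% of genes had one, and 0 of 9 were higher by 2-fold or more, where 3.77% were. Summed over the 9 genes without CACNA2D3 there were 60 shLUC and 51 shHNRNPU regions, a log2 ratio of -0.23 (interval -0.80 to 0.33), compared with -0.10 over all protein-coding genes. Their kept share was 78.3% (47 of 60, interval 65.8 to 87.9%), compared with 71.3% over all. Both intervals include the value over all genes. The log2 ratio of CACNA2D3 itself was -1.49 (interval -3.31 to 0.07). The 2 ratio intervals treat the hairpin counts as independent. Of the shHNRNPU regions, all but 4 in the 9 genes and all but 1 in CACNA2D3 were kept shLUC regions. These intervals ignore that pairing, so a value inside them does not show that the lists are alike.

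The median densities of the 10 genes lay near those of genes of their size. The 10 genes are long, from 141.6 to 952.0 kb. Their median was 15.7 regions per Mb in shLUC, 14.2 in shHNRNPU and 13.1 in hPSC, and the medians of the 2196 protein-coding genes at least as long as the shortest of them were 14.1, 13.2 and 13.6. In shLUC the order ran from CACNA1B with 36.5 per Mb and CACNA2D2 with 28.2 down to CACNB2 with 9.92 and CACNA1D with 0. CACNA2D3 lay just above the median of long genes in shLUC with 14.7 and well below it in shHNRNPU with 5.25. With counts this small, neighbours in that order do not differ beyond counting error.

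The untreated cells were then set beside the hairpin control. Of the 10 genes 6 held fewer regions in hPSC than in shLUC and 4 held more, where 51.2% and 40.3% of 2258 protein-coding genes with at least 4 regions in either list did. A difference of 2-fold or more lower in hPSC was found in CACNA1B, CACNA1E, CACNA2D1 and CACNA2D2 (4 of 10, against 27.2% of genes), and 2-fold or more higher in CACNA1D and CACNB4 (2 of 10, against 19.5%). Of the 65 hPSC regions in these genes, 13 overlapped a region of either hairpin list, and 5 had identical coordinates to one. No share over all protein-coding genes is given for these counts, so whether they are ordinary is not shown. An hPSC region lay on 10 of the 74 regions of shLUC, or 13.5% (6.68 to 23.5%), where the share over all protein-coding genes was 16.8%. For shHNRNPU it was 10 of 56, or 17.9% (8.91 to 30.4%), where the share over all was 19.9%. Both intervals hold the value over all genes.

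The 5 gained regions were also set against the hPSC list. An hPSC region overlapped 3 of them, those at 138023223 to 138023622 in CACNA1B, 2244044 to 2244443 in CACNA1C and 151915173 to 151915572 in CACNB4, the latter 2 at identical coordinates. The gained regions of CACNA2D3 and CACNA1E (181535612 to 181536011) had none. Of the 23 lost regions 3 overlapped an hPSC region and of the 51 kept ones 7. Over all protein-coding genes the shares were 30.9% of gained, 17.3% of lost and 16.5% of kept regions, and 3 of 5 is too few to set against them.

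The rest of the subunit family was counted in full. It has 16 more genes, with a median length of 63.2 kb against 361.1 kb for the 10 above. They held 32 regions for shLUC, 24 for shHNRNPU and 21 for hPSC, and 18 of the 32 shLUC regions were kept (56.2%, interval 37.7 to 73.6%, which includes the 71.3% of all genes). Fewer regions in shHNRNPU were found in 5 of the 16, more in 1 and equal numbers in 10. Most of the equal ones held from 0 to 2 regions in each hairpin list, which leaves little room for a difference. Only 4 of the 16 held at least 4 regions in the larger hairpin list, of which 2 had fewer in shHNRNPU and 1 of these by 2-fold or more. Of the 1962 protein-coding genes with that many, 51.6% had fewer and 10.1% had fewer by 2-fold or more. CACNA1G, a T-type pore that opens at low voltage, was the 1 of the 4 lower by 2-fold or more, with 5 regions for shLUC, 2 for shHNRNPU and 1 for hPSC. CACNA2D4, the remaining alpha2delta gene, held 5, 3 and 3, with 2 of 5 kept. CACNA1H and CACNA1I, the other T-type pores, held 5, 5 and 2 and 4, 4 and 5 regions. CACNG3, which codes for a gamma subunit that also accompanies AMPA receptors, held 0 in both hairpin lists and 3 in hPSC.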

How the data were processed

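MAR-seq was performed on 6 samples of H1 cells. Per the labels, nuclei were isolated with detergent, fixed and cut with MspI, HaeIII, RsaI, AluI, BamHI and PvuII, and DNA of the nuclear matrix and sonicated input DNA were sequenced as paired ends. The submitters' processing notes name cutadapt, Bowtie2, SAMtools, MACS2, deepTools and hg38. The peak threshold, the use of the input, the pooling of samples and the way regions were set to 1 width were not given in the sources used here. The authors deposited 1 list of positions per group, whose score was 0 for each region, so depth and height are unknown. The identical coordinates of the hairpin lists leave it unknown whether they were called together. No method came from the accompanying paper, whose experiments are different ones.

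Regions were matched to the RefSeq gene table (GRCh38.p14) by overlap of at least 1 bp, and positions were counted from 1. Gene strand came from the RefSeq promoter table. The table gives no exons, so exon and intron positions are not analysed here. Shares have exact binomial (Clopper-Pearson) and counts exact Poisson intervals. For a ratio of counts the binomial interval of one count in their sum was converted, which treats the 2 counts as independent. The genes, lists and comparisons were chosen with earlier results of these data known. By rule, the genes named besides the 10 were subunit genes with at least 3 regions in a list and the 3 genes nearest to CACNA2D3 in counts. MYT1L, TBCD, DMXL2, genes under regions of CACNA2D3 and, in the closing section, further CACNG genes and CACNA1S were named after their values were seen. The counting code was tested on simulated data with known answers. Counting was done in Python 3.11.15 with pandas 2.3.3 and numpy 2.4.6, intervals came from scipy 1.17.1, and plots were drawn with matplotlib 3.10.9.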

Additional observations from a re-analysis of the deposited data

How the results depend on the processing

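Counting by the region's centre, widening genes by 10 kb, merging regions less than 1 kb apart and scaling to equal list lengths moved none of 120 counts of single genes beyond its counting interval, and 35 of 43 other alternatives stayed within the interval of the value, or within 1.5 times for counts of genes. Intervals of counts this small are wide, so few alternatives could pass them. With genes widened by 10 kb CACNA1D went from 0 to 2 regions in shLUC and from 0 to 1 in shHNRNPU. Both stayed inside its interval of 0 to 3.69. For the difference along CACNA2D3 the interval used was that of the kept share in its last part. The log2 ratio of CACNA2D3 ran from -2.32, without regions under nested genes (10 in shLUC and 2 in shHNRNPU), to -1.14 against hPSC in place of shLUC. That of the 9 other genes ran from -0.25 with widened genes to -0.08 against hPSC, and was -0.12 at equal list lengths. The omission of nested genes, of CACNA1C and the joining of the promoter window, as well as the alternatives for the 16 further genes, were chosen after seeing the data. The number of genes past 2-fold, 199 lower and 74 higher, depended on its settings by construction. It was 2394 and 1919 with at least 1 region in the larger list, 10 and 1 with at least 8, and 382 and 135 at a fold of 1.5. Counting an hPSC region within 5 kb raised the shared share from 13.5 to 31.1% for shLUC and from 17.9 to 35.7% for shHNRNPU, since it admits more pairs. The difference in kept share between the last and the first part of CACNA2D3 was 66.7 percentage points with 3 equal parts, 40 with 2, a move of more than 1.5 times, and 80 with 5. No paired analysis was possible because the samples of a group share 1 list, without values of their own, and for the same reason no replicate could be left out. Without read depth or region height, a region just under the calling threshold in one list cannot be told from an absent one.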

Other observations

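The 8 gamma subunit genes, whose products include the transmembrane regulators of AMPA receptors, held 10 regions for shLUC, 6 for shHNRNPU and 8 for hPSC. Of the 10 shLUC regions 6 were kept, where the share over all protein-coding genes was 71.3%. The 4 lost regions of the gamma genes lay in 3 genes that neighbour each other on chromosome 17, with 1 or 2 shLUC regions each. This grouping was not set against other neighbouring genes. The genes named here were chosen after their values were seen. CACNG5 (66835117 to 66894751) held 2 regions in shLUC and 1 in shHNRNPU, CACNG4 (66964707 to 67033398) 2 and 0, and CACNG1 (67044554 to 67056797) 1 and 0. Together they had 5 in shLUC, 1 in shHNRNPU and 1 in hPSC. CACNG2, CACNG6 and CACNG8 held 2, 1 and 2 shLUC regions, all of them kept. CACNA1S, the L-type pore of skeletal muscle, had 2 regions in each hairpin list but none in common, with 2 lost and 2 gained.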
